A study of Danio rerio with 12 samples.

Results

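The nuclear-encoded genes of oxidative phosphorylation were examined in poly(A)-selected RNA from whole zebrafish larvae. Members were the rows of the expression table whose symbol begins with nduf, sdha to sdhd, uqcr, cox4 to cox8 or atp5, or is cyc1. This gave 103 of 44667 rows, each with its own Ensembl identifier. Complex I (nduf) held 37 members, complex II (sdh) 5, complex III (uqcr and cyc1) 9, complex IV (cox, with the ndufa4 family) 22 and complex V (atp5) 19. The other 11, ndufaf1 to ndufaf7 and sdhaf1 to sdhaf4, encode assembly factors, which help to build complexes I and II and are not part of them. The rule reads lower-case symbols, so 4 rows of the same kind with upper-case symbols were not members, among them COX5B.

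The larvae were wild type and 4 days post fertilisation, in 4 groups of 3 libraries: 30 mg/L OBS (OBS30), 20 mg/L OBS (OBS20), 20 mg/L PFOS (PFOS20) and untreated control. PFOS is a perfluoroalkyl sulfonate surfactant, and OBS is an alternative to it in which a perfluoroalkenyl chain is joined through oxygen to a benzenesulfonate. The title of the study concerns tissue changes, oxidative stress and immune effects of OBS in developing zebrafish. The labels give neither the length of exposure nor whether libraries came from separate clutches or pools, so p-values measure only the spread between these libraries.

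The respiratory chain passes electrons from NADH through complex I, and from succinate through complex II, to ubiquinone, then through complex III and cytochrome c to complex IV, where oxygen is reduced. Complexes I, III and IV pump protons out of the mitochondrial matrix, and complex V, the ATP synthase, makes ATP as protons return. A few subunits of complexes I, III, IV and V are encoded by mitochondrial DNA, while complex II and all other subunits come from nuclear genes such as the members.

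The deposited unit was TPM, a transcript abundance that is corrected for length and sums to the same total in each library, so levels of different genes can be compared and a rise of some transcripts lowers the share of others. The number of reads is unknown. In whole larvae, fewer cells of a type and less RNA per cell cannot be told apart. Tests used rows with at least 1 TPM in at least 3 libraries, which 30674 rows and 100 members passed. The members ndufa9b, ndufa4l2b and atp5if1b did not pass and had no mean above 1.17 TPM in any group. Changes are differences in mean log2(TPM + 1) with their standard error (SE) from 1 limma fit over all 12 libraries, and calls were made at an adjusted p (Benjamini-Hochberg, over all rows of a comparison) under 0.05. The library OBS20 replicate 3 had a median over all rows of 1.27 TPM, against 1.57 to 2.33 in the other 11. Medians and counts of called members that rest on it are also given without it. Counts by unadjusted p or by libraries that did not overlap are not.

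In control larvae the level of the members differed by complex, with the ATP synthase highest and the assembly factors lowest. The median member of complex V was at 475 TPM, that of complex IV at 173 TPM, that of complex I at 173 TPM, that of complex III at 156 TPM, that of complex II at 64.2 TPM and that of the assembly factors at 14.5 TPM. Of the 103 members, 67 had a control mean of at least 100 TPM and 10 had less than 5 TPM. The subunit c gene atp5mc3b, which encodes the proton-carrying ring of the ATP synthase, was highest at 1392 ± 42.0 TPM (SD, n = 3), followed by the complex IV gene cox6c at 1199 ± 11.7 TPM and the catalytic ATP synthase gene atp5f1b at 1131 ± 68.0 TPM. The means of cox6c and atp5f1b were about 1 SD of atp5f1b apart, and the next members, cox8a at 974 ± 23.0 TPM and cox7c at 972 ± 59.8 TPM, did not differ beyond their spread. In complex I no member exceeded 500 TPM, and ndufa1, ndufs5, ndufb9 and ndufb8 led with control means between 336 and 389.6 TPM. Over the 12 libraries ndufb8, a membrane arm subunit, had the highest mean of complex I and ndufa9b the lowest. In complex II the flavoprotein gene sdha was highest at 200.0 ± 16.6 TPM and sdhda lowest at 1.04 ± 0.419 TPM, beside its paralog sdhdb at 63.9 ± 3.07 TPM. In complex III the levels ran from the Rieske iron-sulfur protein gene uqcrfs1 at 64.1 ± 1.96 TPM to uqcrq at 723 ± 0.656 TPM. Complex IV had 9 members at 500 TPM or more, and low paralogs such as ndufa4l2a at 2.73 ± 0.549 TPM. The low paralogs ndufa4, cox4i1l, cox7a1, cox5b2 and cox6a2 had control means of 5.82 to 17.2 TPM.

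In PFOS20 larvae at least 1 member of every complex rose relative to control. Of the 100 tested members 23 rose, 3 fell and 74 were not called, beside 6.35% of all tested rows called higher and 11.9% called lower. The members' median change was 0.18 and the median of all tested rows was -0.13, so the members lay 0.31 above it. Median-of-ratios scaling, which moves the median of all rows to 0.00, left this distance at 0.35, and quantile normalisation at 0.20. Libraries did not overlap between PFOS20 and control for 54 members that were higher and 4 that were lower, beside 14.5% and 28.7% of all rows. Together the members took 3.20% ± 0.0646 of all TPM in PFOS20 larvae and 2.81% ± 0.0470 in control larvae (SD, n = 3 each). The count of members that rose was 13 with median-of-ratios scaling, a share near that of all rows, of which 3590 of 30674 rose. Fewer members were called with this scaling although their median change was larger than the 0.18 without it. The count was 35 after transcripts of the mitochondrial genome were taken out of the total, beside 2125 of 31138 rows. It was 12 and 11 without PFOS20 replicates 2 and 3, beside 1560 and 1126 of 30674 rows. It was 10, 15 and 11 without control replicates 2, 3 and 4, beside 1366, 1289 and 1237 rows. Without OBS20 replicate 3 it was 37, beside 2829 rows. That library is in neither group, and leaving it out changed the shared estimate of the spread and not the rows that passed the filter.

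**Figure D1:**
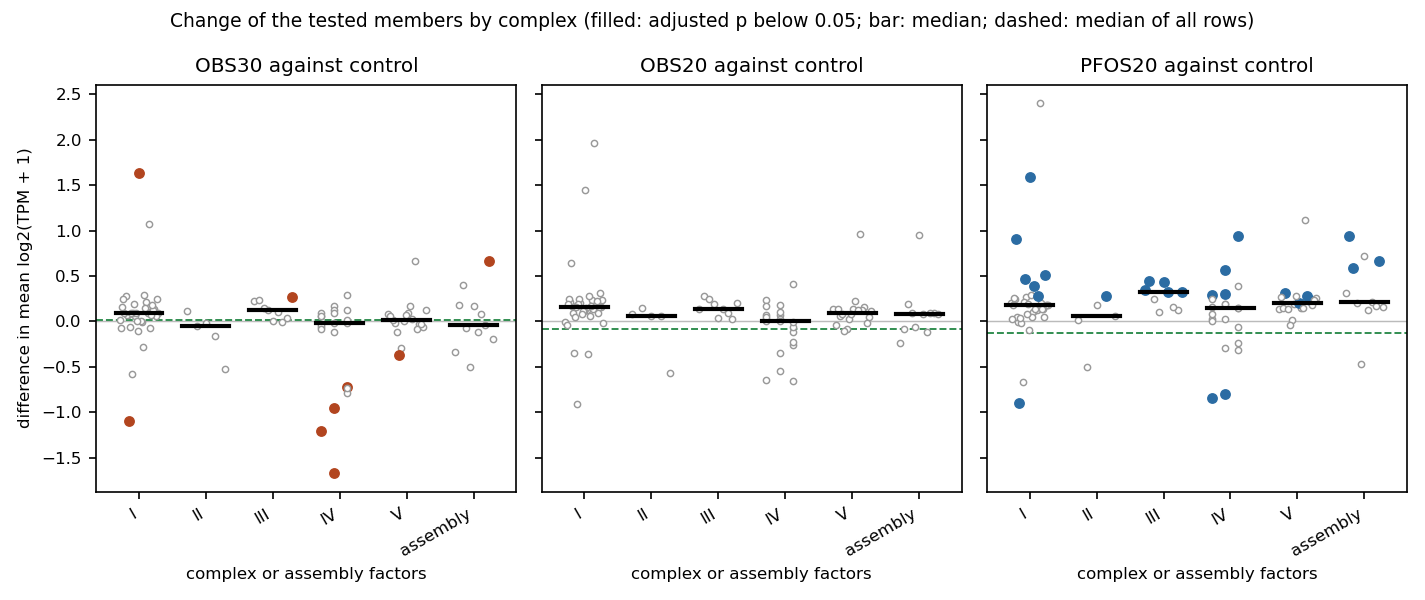
Difference in mean log2(TPM + 1) of each tested member (points) from control, by complex, for OBS30, OBS20 and PFOS20; filled points passed the test, black bars are medians of the members and dashed lines medians of all rows. In PFOS20 most members lie above 0 while the dashed line lies at -0.13, and in OBS30 4 complex IV members were called lower.

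Complex III had the highest median change of the complexes. Of its 9 members 5 rose and none fell, beside 6.35% of all rows called higher and 11.9% lower. All 9 of its changes were positive. Of its members 8 had PFOS20 libraries that all lay above the control libraries, beside 14.5% of all rows. Its median change was 0.33, against 0.20 for complex V, 0.18 for complex I, 0.15 for complex IV, 0.06 for complex II and 0.22 for the assembly factors. These medians kept their sign under quantile normalisation, median-of-ratios scaling and the removal of mitochondrial transcripts, where that of complex III was 0.29, 0.50 and 0.36. In single libraries the median of complex III against the control mean was 0.30, 0.31 and 0.23 in PFOS20 replicates 2, 3 and 4, and -0.01, 0.01 and -0.02 in the control libraries. The count of 5 was 3 to 6 when 1 library was left out. It was 3 without control replicate 3 and without control replicate 4, beside 1289 and 1237 of 30674 rows called higher. Whether one complex differed from another was not tested.

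**Figure D2:**
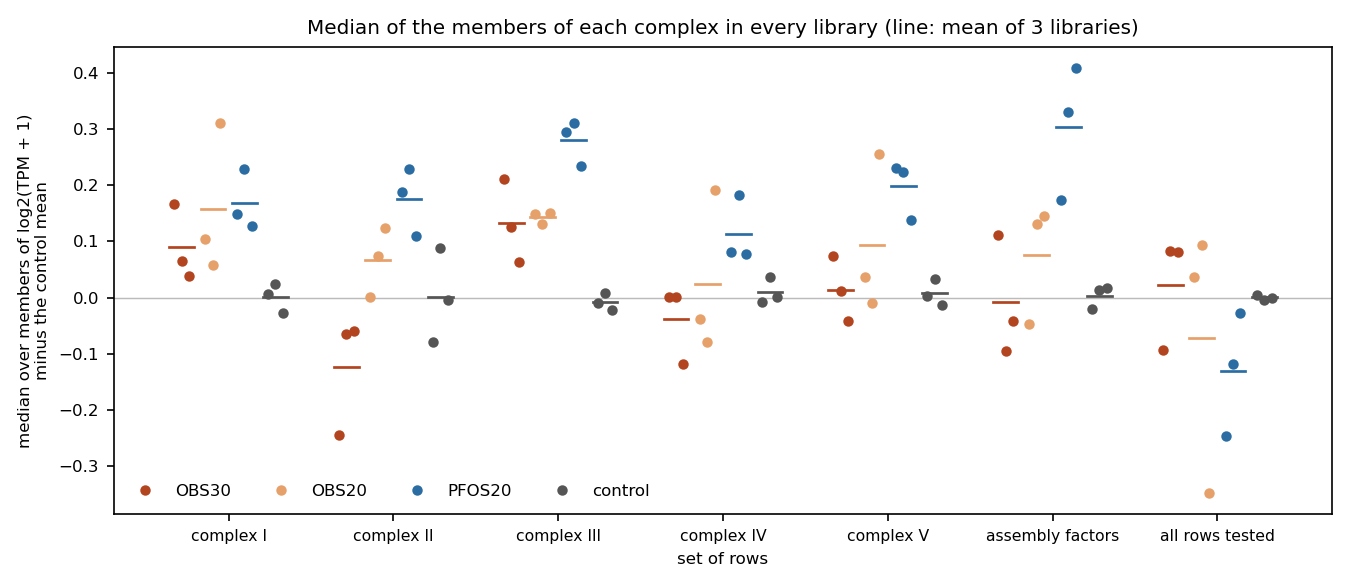
Median over the tested members of each complex of log2(TPM + 1) minus the control mean, in every library (points) with the mean of each group of 3 (lines), beside the same over all tested rows. The PFOS20 points of complex III lie between 0.23 and 0.31 and its control points near 0. OBS20 replicate 3 is the lowest point of all rows. It is the highest OBS20 point of every complex and of the assembly factors, in complex III only narrowly.

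The uqcrh gene (ENSDARG00000059128), which encodes the hinge protein that guides cytochrome c1 to cytochrome c, had 453, 524 and 460.1 TPM in PFOS20 larvae, against 347, 368 and 348 TPM in control larvae. All PFOS20 libraries lay above all control libraries, a change of 0.43 ± 0.07 (SE, n = 3 each) with limma adjusted p = 0.0031. The core protein gene uqcrc2a (ENSDARG00000014794) had 189, 191 and 173 TPM in PFOS20 larvae, against 127, 135 and 141 TPM in control larvae. It rose by 0.45 ± 0.07 (adjusted p = 0.0023), and the groups did not overlap. Its paralog uqcrc2b had 177, 183 and 190.3 TPM in PFOS20 larvae, against 151, 148 and 139.6 TPM in control larvae. That was a rise of 0.33 ± 0.07 (adjusted p = 0.0078), again without overlap, so both copies of this core subunit rose. The gene of the haem protein cytochrome c1, cyc1, had 320.3, 324 and 352 TPM in PFOS20 larvae, against 276, 255 and 251 TPM in control larvae. It rose by 0.35 ± 0.08 (adjusted p = 0.015), with every PFOS20 library above the controls. The accessory subunit gene uqcrb rose by 0.33 ± 0.10 (adjusted p = 0.042) to 771 ± 50.8 TPM in PFOS20, against 614 ± 30.6 TPM in control. The other core protein gene, uqcrc1, was at 167 ± 5.05 TPM in PFOS20 and 156 ± 10.4 TPM in control and was not called (adjusted p = 0.44), nor were uqcrq, uqcr10 and uqcrfs1, whose changes were 0.25 ± 0.09, 0.13 ± 0.09 and 0.16 ± 0.08. The calls of uqcrh, uqcrc2a and uqcrc2b were kept when any 1 of the 12 libraries was left out. Lost were those of cyc1 without control replicate 3 or 4 (adjusted p up to 0.058) and uqcrb without PFOS20 replicate 2 or 3, OBS20 replicate 1, OBS30 replicate 3 or control replicate 2, 3 or 4 (adjusted p up to 0.15). The call of uqcrb was also lost without a filter and with median-of-ratios scaling.

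**Figure D3:**
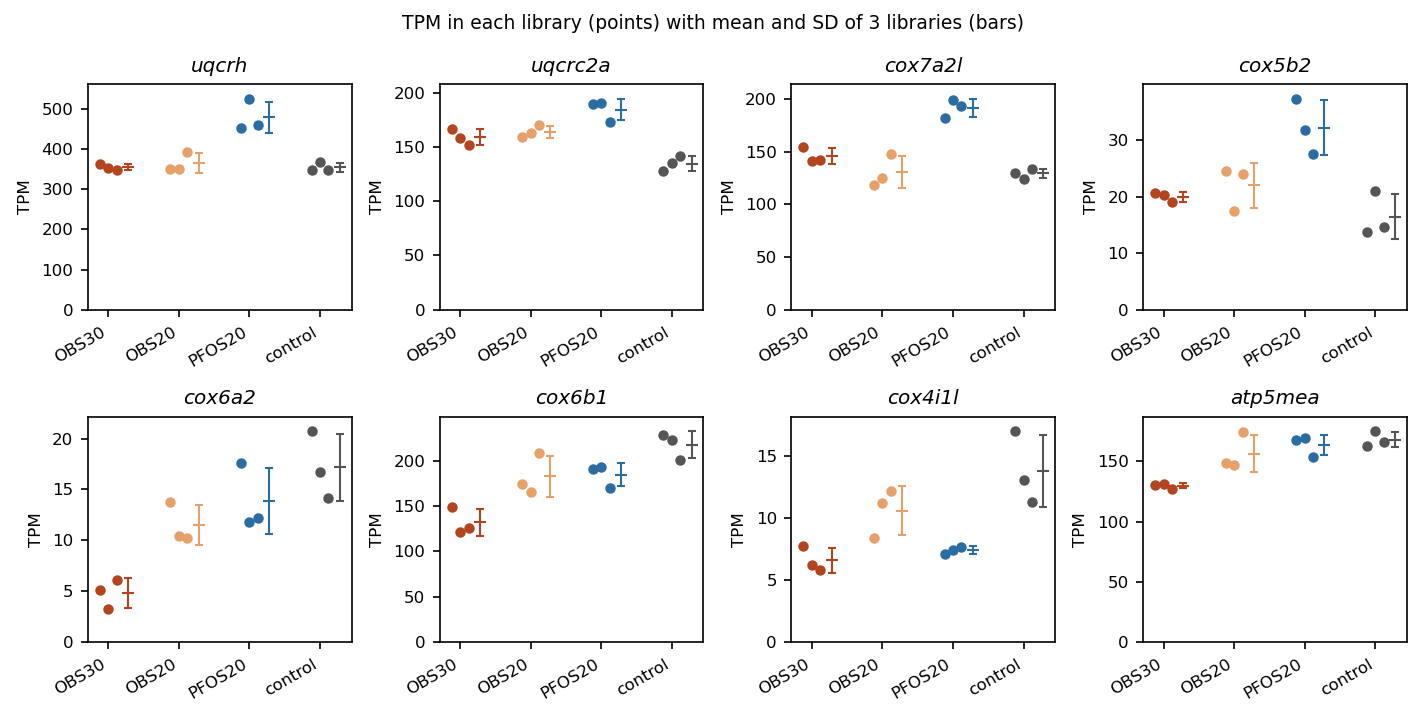
TPM of 8 members in every library (points) with the mean and SD of the 3 libraries of each group (bars), on axes that start at 0. The upper row shows complex III and IV members that rose in PFOS20, and the lower row members that fell in OBS30, where cox6a2 lay at 3.21 to 6.12 TPM, against 14.1 to 20.7 TPM in control.

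In complex I, 6 of 36 tested members rose in PFOS20, 1 fell and 29 were not called. Of all rows 6.35% were called higher and 11.9% lower. The acyl carrier gene ndufab1a, whose product also serves mitochondrial fatty acid synthesis, had 96.3, 86.0 and 74.4 TPM in PFOS20 larvae, against 37.5, 65.4 and 36.5 TPM in control larvae. All PFOS20 libraries were higher, and the rise was 0.91 ± 0.22 (adjusted p = 0.018), although control replicate 3 lay well above the other controls. Its paralog ndufab1b was not called, at 201 ± 17.0 TPM in PFOS20 and 173 ± 7.13 TPM in control. The gene of the NADH-oxidising arm subunit ndufv2, which carries an iron-sulfur cluster, rose by 0.39 ± 0.09 to 135 ± 9.11 TPM, against 102 ± 3.65 TPM in control (adjusted p = 0.015). The membrane arm genes ndufb7 and ndufb6 rose by 0.51 ± 0.13 and 0.28 ± 0.08, and ndufa6, whose product binds the acyl carrier subunit, by 0.46 ± 0.13. Among the other core genes ndufv1, which binds NADH, changed by 0.09 ± 0.07 and ndufs1, which carries iron-sulfur clusters, by 0.13 ± 0.08, and neither was called. The calls of ndufb5 and ndufs8b concerned rows with little signal. The ndufb5 row had 6.47, 4.90 and 7.38 TPM in PFOS20 larvae, against 1.90, 0 and 3.65 TPM in control larvae. It rose by 1.59 ± 0.44 (adjusted p = 0.030). The ndufs8b row had 0.460, 0.510 and 0.160 TPM in PFOS20 larvae, against 1.57, 1.31 and 1.75 TPM in control larvae. It fell by 0.89 ± 0.20 (adjusted p = 0.012), while its paralog ndufs8a, an iron-sulfur subunit gene, was at 154 ± 9.81 TPM in PFOS20 and 150.2 ± 6.29 TPM in control. The ndufs8b row reached 1 TPM only in the control libraries and in OBS20 replicate 2, so it passed the filter through the group where it was high. Among these calls that of ndufs8b was kept without any 1 library, which does not remove this selection. Lost were those of ndufab1a without PFOS20 replicate 2 or 3 or control replicate 2 or 4 (adjusted p up to 0.073), ndufv2 without PFOS20 replicate 3 or control replicate 2 or 3 (adjusted p up to 0.068) and ndufb7 without PFOS20 replicate 2 or 3 or control replicate 2 or 4 (adjusted p up to 0.084). Also lost were those of ndufb6 without PFOS20 replicate 2, 3 or 4, OBS20 replicate 2, OBS30 replicate 1 or 3 or control replicate 2, 3 or 4 (adjusted p up to 0.13), ndufa6 without PFOS20 replicate 2 or 3 or control replicate 2, 3 or 4 (adjusted p up to 0.088) and ndufb5 without PFOS20 replicate 2, 3 or 4 or control replicate 2 (adjusted p up to 0.084). Median-of-ratios scaling ended the calls of ndufb7, ndufb6, ndufa6 and ndufv2, and quantile normalisation that of ndufb6. A pseudocount of 0.1 ended those of ndufb5 and ndufs8b, and that of ndufb5 was also lost without a filter and in the fit of the 6 libraries compared. A block for the replicate number in the fit ended those of ndufb5, ndufb6 and ndufa6.

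In complex IV, 4 of 21 tested members rose in PFOS20 and 2 fell, beside 6.35% of all rows called higher and 11.9% lower. The share of its members that fell, 9.52%, was below that of all rows. The cox7a2l gene (ENSDARG00000054907), whose product joins complexes III and IV into supercomplexes in mouse and zebrafish, had 182, 199 and 193 TPM in PFOS20 larvae, against 130.2, 124 and 133 TPM in control larvae. The groups did not overlap, and the rise of 0.56 ± 0.09 had adjusted p = 0.0022, the lowest of all members in this comparison. The cox5b2 gene (ENSDARG00000068738), a zinc-binding subunit paralog, had 37.2, 31.8 and 27.6 TPM in PFOS20 larvae, against 13.7, 21.0 and 14.6 TPM in control larvae. It rose by 0.94 ± 0.18 (adjusted p = 0.0056), without overlap. The subunit gene cox5aa rose by 0.30 ± 0.07 to 1094 ± 26.6 TPM, against 891 ± 40.7 TPM in control, and ndufa4l, a paralog of a subunit first counted with complex I, by 0.30 ± 0.09 to 785 ± 50.7 TPM, against 638 ± 12.3 TPM. The cox4i1l row had 7.10, 7.45 and 7.69 TPM in PFOS20 larvae, against 17.0, 13.1 and 11.3 TPM in control larvae. It fell by 0.80 ± 0.18 (adjusted p = 0.011), and every PFOS20 library lay below the controls. The ndufa4 row fell by 0.84 ± 0.25 to 2.95 ± 1.27 TPM, against 5.82 ± 0.717 TPM in control. The abundant cox4i1 and the variants cox4i2 and cox5ab were not called, and the changes were 0.03 ± 0.09 for cox4i1, 0.15 ± 0.12 for cox4i2, a form linked to low oxygen in mammals, and 0.19 ± 0.09 for cox5ab. The muscle forms cox6a2, cox7a1 and cox8b, whose changes were -0.30 ± 0.23, -0.32 ± 0.38 and -0.06 ± 0.23, were not called in PFOS20, and neither was ndufa4l2a at 0.39 ± 0.23. The calls of cox7a2l, cox5b2 and cox4i1l were kept without any 1 library, and that of cox4i1l was lost under quantile normalisation and median-of-ratios scaling (adjusted p up to 0.077). Lost were those of cox5aa without control replicate 2 or 4 (adjusted p up to 0.056), ndufa4l without PFOS20 replicate 2 or 3, OBS20 replicate 1, OBS30 replicate 1, 3 or 4 or control replicate 2, 3 or 4 (adjusted p up to 0.16) and ndufa4 without PFOS20 replicate 2 or 3, OBS20 replicate 2, OBS30 replicate 1 or 3 or control replicate 2, 3 or 4 (adjusted p up to 0.13). Median-of-ratios scaling also ended the calls of cox5aa and ndufa4l, and that of ndufa4l was lost without a filter. The call of ndufa4 was lost with a pseudocount of 0.1, without a filter and in the fit of the 6 libraries compared. Those of ndufa4 and ndufa4l were also lost with a block for the replicate number.

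In complex V, 4 of 18 tested members rose in PFOS20 and none fell, beside 6.35% of all rows called higher and 11.9% lower. Of the 18 changes 17 were positive. The c-ring gene atp5mc1 had 661, 692 and 712 TPM in PFOS20 larvae, against 546, 580.4 and 572 TPM in control larvae. It rose by 0.28 ± 0.06 (adjusted p = 0.0079), without overlap. The c-ring paralog atp5mc3b, the highest member of all, rose by 0.20 ± 0.06 to 1604 ± 34.6 TPM, against 1392 ± 42.0 TPM in control. The central stalk genes atp5f1e and atp5f1d rose by 0.32 ± 0.09 and 0.24 ± 0.07. The catalytic head genes atp5f1b and atp5fa1 were not called, with changes of 0.14 ± 0.06 and 0.15 ± 0.06, and neither was atp5if1a, which encodes the inhibitor that stops the enzyme running in reverse, at 0.26 ± 0.11. In complex II the membrane anchor gene sdhdb rose by 0.28 ± 0.08 to 77.7 ± 3.77 TPM, against 63.9 ± 3.07 TPM in control (adjusted p = 0.032), and the catalytic genes sdha and sdhb were not called, with changes of 0.01 ± 0.09 and 0.18 ± 0.07. With median-of-ratios scaling no complex V member was called higher. The call of atp5mc1 was kept without any 1 library, and lost were those of atp5mc3b without PFOS20 replicate 2, 3 or 4, OBS30 replicate 4 or control replicate 2, 3 or 4 (adjusted p up to 0.13), atp5f1e without PFOS20 replicate 2 or 3, OBS30 replicate 4 or control replicate 2, 3 or 4 (adjusted p up to 0.12), atp5f1d without PFOS20 replicate 2, 3 or 4, OBS20 replicate 1, OBS30 replicate 3 or 4 or control replicate 2, 3 or 4 (adjusted p up to 0.14) and sdhdb without PFOS20 replicate 3 or 4 or control replicate 2, 3 or 4 (adjusted p up to 0.12). Without a filter the calls of atp5mc3b and atp5f1e were lost, and in the fit of the 6 libraries compared that of sdhdb. With a block for the replicate number those of atp5mc3b, atp5f1d and sdhdb were lost.

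Of the 11 assembly factors 3 rose in PFOS20 and none fell, beside 6.35% of all rows called higher and 11.9% lower. The sdhaf2 gene, whose product attaches the flavin cofactor to the complex II flavoprotein in yeast and human cells, had 11.6, 9.42 and 9.90 TPM in PFOS20 larvae, against 5.68, 5.72 and 3.54 TPM in control larvae. All PFOS20 libraries were above the controls, and the rise was 0.94 ± 0.23 (adjusted p = 0.018). The ndufaf7 gene, which encodes a methyltransferase that acts on a complex I core subunit in human cells, had 6.25, 7.85 and 7.01 TPM in PFOS20 larvae, against 3.72, 3.98 and 4.53 TPM in control larvae. It rose by 0.66 ± 0.14 (adjusted p = 0.0085), without overlap. The complex I factor gene ndufaf6 rose by 0.59 ± 0.13, to 11.5 ± 1.91 TPM, against 7.21 ± 0.112 TPM in control. The most abundant factor, ndufaf1, was at 52.1 ± 3.81 TPM in PFOS20 and 41.8 ± 4.21 TPM in control and was not called (adjusted p = 0.058), and the least abundant, sdhaf1, was at 3.59 ± 0.741 TPM in PFOS20 and 1.98 ± 1.50 TPM in control. The calls of ndufaf6 and ndufaf7 were kept without any 1 library, and lost was that of sdhaf2 without PFOS20 replicate 2 or control replicate 4 (adjusted p up to 0.071). The sdhaf2 row shares its orthology identifier with an unnamed locus at 5.08 ± 3.19 TPM in PFOS20 and 7.80 ± 0.812 TPM in control, and the sum of both, 15.4 ± 2.51 TPM in PFOS20 and 12.8 ± 0.621 TPM in control, was not called (0.24 ± 0.14, adjusted p = 0.25).

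In OBS30 larvae 6 members fell relative to control, most of them less abundant copies of a subunit gene, and 3 rose. The other 91 tested members were not called, beside 4.73% of all rows called higher and 3.7% called lower, so the shares of the members were near the background. The members' median change was 0.06 and that of all rows 0.02. Libraries did not overlap for 19 members that were higher and 16 that were lower, beside 17.9% and 15.3% of all rows. The members took 2.87% ± 0.117 of TPM in OBS30 and 2.81% ± 0.0470 in control. Of the 6 that fell, 4 belonged to complex IV, which had 21 tested members. The count of 3 that rose was 1 with median-of-ratios scaling, beside 1686 of 30674 rows, and 6 with quantile normalisation, beside 1988. It was 5 without a filter, beside 1357 of 44667 rows, and with only the 6 libraries compared, beside 2008 of 30674. It was 0 without OBS30 replicate 1, control replicate 2 or control replicate 3, beside 983, 1002 and 906 rows called higher. It was 1 without OBS30 replicate 3 or 4, beside 859 and 872 rows. Without OBS20 replicate 3 it was 10, beside 2338 rows. The count of 6 that fell was 4 to 8 without 1 library. It was 4 without OBS30 replicate 4 or control replicate 3, beside 616 and 660 rows called lower. It was 8 without OBS20 replicate 3, beside 1627 rows.

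The cox6a2 gene (ENSDARG00000054588), whose mammalian counterpart is the heart and skeletal muscle form of a small complex IV subunit, had 5.07, 3.21 and 6.12 TPM in OBS30 larvae, against 20.7, 16.8 and 14.1 TPM in control larvae. Every OBS30 library lay below every control library, a change of -1.67 ± 0.23 with adjusted p = 0.0011, the lowest of the members, and the call was kept in all 20 alternative fits. The cox6b1 gene (ENSDARG00000045230), whose product caps complex IV towards the intermembrane space, had 149, 122 and 126 TPM in OBS30 larvae, against 229, 223 and 201 TPM in control larvae. It fell by 0.72 ± 0.11 (adjusted p = 0.0024), without overlap. The call of cox6b1 was lost under median-of-ratios scaling (adjusted p = 0.064) and kept without any 1 library. The cox4i1l row had 7.74, 6.20 and 5.83 TPM in OBS30 larvae, against 17.0, 13.1 and 11.3 TPM in control larvae. It fell by 0.95 ± 0.18 (adjusted p = 0.0070). The ndufa4 row fell by 1.20 ± 0.25 to 1.99 ± 0.553 TPM, against 5.82 ± 0.717 TPM in control, and ndufs8b fell by 1.09 ± 0.20 to 0.200 ± 0.173 TPM, against 1.54 ± 0.221 TPM. The ndufs8b row passed the filter only through control, the group where it was high. The complex V gene atp5mea, which encodes subunit e of the membrane part, had 131, 132 and 127 TPM in OBS30 larvae, against 163, 175 and 166 TPM in control larvae. It fell by 0.37 ± 0.08 (adjusted p = 0.017), and all OBS30 libraries were below the controls. Of the 3 that rose, uqcrc2b was at 177 ± 6.47 TPM in OBS30 and 146 ± 5.91 TPM in control (0.27 ± 0.07, adjusted p = 0.030), ndufaf7 at 7.04 ± 0.468 TPM in OBS30 and 4.08 ± 0.414 TPM in control (0.67 ± 0.14, adjusted p = 0.013), and ndufb5 at 6.39 ± 0.826 TPM in OBS30 and 1.85 ± 1.83 TPM in control (1.63 ± 0.44, adjusted p = 0.046). Lost were the calls of atp5mea without OBS30 replicate 1, 3 or 4 or control replicate 3 or 4 (adjusted p up to 0.074), uqcrc2b without OBS30 replicate 1, 3 or 4 or control replicate 2, 3 or 4 (adjusted p up to 0.12) and ndufaf7 without OBS30 replicate 1 or control replicate 2 or 3 (adjusted p up to 0.058). Also lost were those of ndufa4 without OBS30 replicate 4 or control replicate 3 (adjusted p up to 0.061) and ndufb5 without PFOS20 replicate 2, 3 or 4, OBS20 replicate 1 or 2, OBS30 replicate 1, 3 or 4 or control replicate 2 or 3 (adjusted p up to 0.13). Median-of-ratios scaling also ended the calls of atp5mea, uqcrc2b and ndufb5. That of ndufb5 was lost as well with quantile normalisation, a pseudocount of 0.1, no filter and the fit of the 6 libraries compared. A block for the replicate number ended those of cox4i1l (adjusted p = 0.062), ndufs8b (adjusted p = 0.058), atp5mea, uqcrc2b, ndufaf7 and ndufb5.

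Of the other muscle-type paralogs of complex IV, cox8b and cox7a1, neither was called in OBS30. The cox8b gene, a muscle form in mammals, had 25.1, 21.9 and 20.6 TPM in OBS30 larvae, against 52.1, 29.0 and 36.0 TPM in control larvae (adjusted p = 0.078). The cox7a1 gene, also a muscle form in mammals, had 4.02, 12.2 and 13.7 TPM in OBS30 larvae, against 15.5, 15.2 and 17.9 TPM in control larvae (adjusted p = 0.28). All OBS30 libraries of both genes lay below all control libraries, as they did for 15.3% of all rows. The 15 skeletal muscle markers, which include actc1b, ckma and mylpfa, were also measured, of which 4 rose and none fell in OBS30. Of all rows 4.73% were called higher and 3.7% lower in OBS30. Their summed level was 92801 to 101105 TPM in OBS30 and 88454 to 93262 TPM in control. Of 8 tested heart markers 2 rose and none fell, and the sum of the 9 in the table was 162 to 167 TPM in OBS30 and 143 to 159 TPM in control.

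In OBS20 larvae no member was called in either direction against control by limma, beside 0.681% of all rows called higher and 0.805% called lower. At an unadjusted p below 0.05, 23 members were higher and 4 lower, beside 4.46% and 6.03% of all rows. Without a filter on low values 1 member was called higher, beside 183 of 44667 rows. The lowest adjusted p was 0.097, for the catalytic ATP synthase gene atp5fa1, at 1124 ± 37.5 TPM in OBS20 and 963 ± 46.7 TPM in control. Libraries did not overlap for 28 members that were higher and 4 that were lower, beside 5.63% and 9.35% of all rows. The members took 3.04% ± 0.281 of TPM in OBS20 (SD, n = 3), with 2.93%, 2.84% and 3.37% in replicates 1, 2 and 3. The value of replicate 3 lay above those of all PFOS20 libraries, which were 3.20%, 3.26% and 3.13%. The members' median change was 0.09 and that of all rows -0.08. These values moved with OBS20 replicate 3, in which the median member stood at 0.22 and the median row at -0.35 relative to the control mean. Without this library the medians were 0.04 for the members and 0.07 for all rows, and no member was called. The counts by unadjusted p and by libraries that did not overlap were not computed without it, so how far they rest on it is unknown. The OBS20 means of 11.5 ± 1.96 TPM for cox6a2 and 183 ± 22.9 TPM for cox6b1 lay between their OBS30 and control means. These genes were chosen for their calls in OBS30 against control, so this order is a description and cannot decide a dose effect.

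The 2 compounds were compared at the matched dose of 20 mg/L, 1 pair. No member was higher in OBS20 than in PFOS20 and 5 were lower, beside 5.85% of all rows called higher and 3.92% called lower. The share of the members called lower was thus near that of all rows. The members' median difference was -0.08 and that of all rows 0.04, and -0.15 and 0.19 without OBS20 replicate 3. The sum of sdhaf2 and its locus was 11.7 ± 0.790 TPM in OBS20 and 15.4 ± 2.51 TPM in PFOS20 and was not called (-0.36 ± 0.14, adjusted p = 0.13). Libraries did not overlap for 7 members that were higher and 13 that were lower, beside 12.4% and 10.9% of all rows. The cox7a2l gene had 119, 125 and 148 TPM in OBS20 larvae, against 182, 199 and 193 TPM in PFOS20 larvae. The groups did not overlap, and the difference was -0.55 ± 0.09 (95% interval -0.75 to -0.36, adjusted p = 0.0038). The complex III hinge gene uqcrh had 350.0, 350.0 and 393 TPM in OBS20 larvae, against 453, 524 and 460.1 TPM in PFOS20 larvae. The difference was -0.39 ± 0.07 (95% interval -0.56 to -0.23, adjusted p = 0.0079), without overlap. The other 3 were assembly factors. The complex I factor gene ndufaf1, whose product acts in an early membrane arm assembly complex, had 33.3, 38.3 and 34.4 TPM in OBS20 larvae, against 48.1, 52.6 and 55.6 TPM in PFOS20 larvae. Its difference was -0.55 ± 0.10 (adjusted p = 0.0081), with every OBS20 library below the PFOS20 libraries. The sdhaf2 gene differed by -1.02 ± 0.23 (adjusted p = 0.019), at 4.69 ± 1.51 TPM in OBS20 and 10.3 ± 1.13 TPM in PFOS20, and ndufaf7 by -0.57 ± 0.14 (adjusted p = 0.026), at 4.42 ± 0.616 TPM in OBS20 and 7.04 ± 0.800 TPM in PFOS20. For 72 of the 100 members the 95% interval of the difference lay within 0.5 log2 units of 0, for 90 it lay within 1, and for the other 10 it reached further. The count of 5 was 20 without OBS20 replicate 3, beside 1384 of 30674 rows called lower, and 3 without PFOS20 replicate 3, beside 608. It was 8 with quantile normalisation, near the share of all rows at 2218, and 3 with median-of-ratios scaling, below the share of all rows at 2173. In a fit of only the 6 libraries compared it was 0, beside 350 rows. Lost were the calls of sdhaf2 without PFOS20 replicate 2 or 3 (adjusted p up to 0.072) and ndufaf7 without PFOS20 replicate 3 or 4 or OBS20 replicate 2 (adjusted p up to 0.12). Median-of-ratios scaling ended the calls of uqcrh and cox7a2l, and a block for the replicate number those of ndufaf1 and ndufaf7.

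Between the OBS doses 1 member fell and none rose, beside 0.466% of all rows called lower and 1.11% called higher. The cox6a2 gene had 5.07, 3.21 and 6.12 TPM in OBS30 larvae, against 13.8, 10.4 and 10.3 TPM in OBS20 larvae. The groups did not overlap, and the difference of -1.13 ± 0.23 had adjusted p = 0.037. This call was kept in 7 of 20 alternative fits. Lost was the call of cox6a2 without PFOS20 replicate 3 or 4, OBS20 replicate 1, 2 or 3, OBS30 replicate 1, 3 or 4 or control replicate 3 (adjusted p up to 0.14). It was also lost without a filter, with median-of-ratios scaling, with a block for the replicate number and in the fit of the 6 libraries compared. For 75 of the 100 members the 95% interval of the difference lay within 0.5 log2 units of 0, and for 90 within 1. Libraries did not overlap for 17 members that were lower and 2 that were higher, beside 6.02% and 10.8% of all rows, and 7 of the 17 belonged to complex IV. The members' median difference was -0.08 and that of all rows 0.10, and -0.01 and -0.05 without OBS20 replicate 3. The counts by libraries that did not overlap were not computed without that library.

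The shares of some complex IV paralogs within their family differed between the groups. Shares were computed within each library from TPM, and were chosen after the values were seen, so they are a description. The cox6b1 gene made up 15.9% ± 1.43 of the TPM of cox6b1 and cox6b2 in OBS30, 21.2% ± 0.445 in OBS20, 18.8% ± 0.909 in PFOS20 and 24.4% ± 2.07 in control (SD, n = 3 each). All OBS30, OBS20 and PFOS20 libraries had a lower share than all control libraries, and the sum of the 2 genes was 832 ± 26.3 TPM in OBS30, 861 ± 113 in OBS20, 981 ± 56.1 in PFOS20 and 890.1 ± 25.1 TPM in control. The cox7a2l gene made up 17.6% ± 1.40 of the TPM of cox7a1, cox7a2a and cox7a2l in OBS30, 15.1% ± 1.32 in OBS20, 21.3% ± 1.39 in PFOS20 and 15.5% ± 1.06 in control. All 3 PFOS20 libraries had a higher share than the libraries of the other groups, and the sum of these genes was 829.6 ± 42.4, 865 ± 39.3 and 898 ± 19.7 TPM in OBS30, OBS20 and PFOS20 and 838 ± 40.9 TPM in control. They held 91.7% of the TPM of their orthology identifier in PFOS20 and 92.4% in control, and the rest lay on other rows. The cox6a2 gene made up 0.566% ± 0.163 of the cox6a pair in OBS30, 1.28% ± 0.254 in OBS20, 1.55% ± 0.351 in PFOS20 and 2.12% ± 0.306 in control, beside the abundant cox6a1, and no OBS30 library overlapped with those of any other group. The cox4i1l gene made up 0.779% ± 0.0917 of the cox4 family in OBS30, 1.19% ± 0.145 in OBS20, 0.826% ± 0.0284 in PFOS20 and 1.57% ± 0.358 in control. In complex III, uqcrc2a made up 47.3% ± 0.289 of its pair in OBS30, 49.3% ± 1.72 in OBS20, 50.1% ± 2.14 in PFOS20 and 47.9% ± 2.26 in control.

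**Figure D4:**
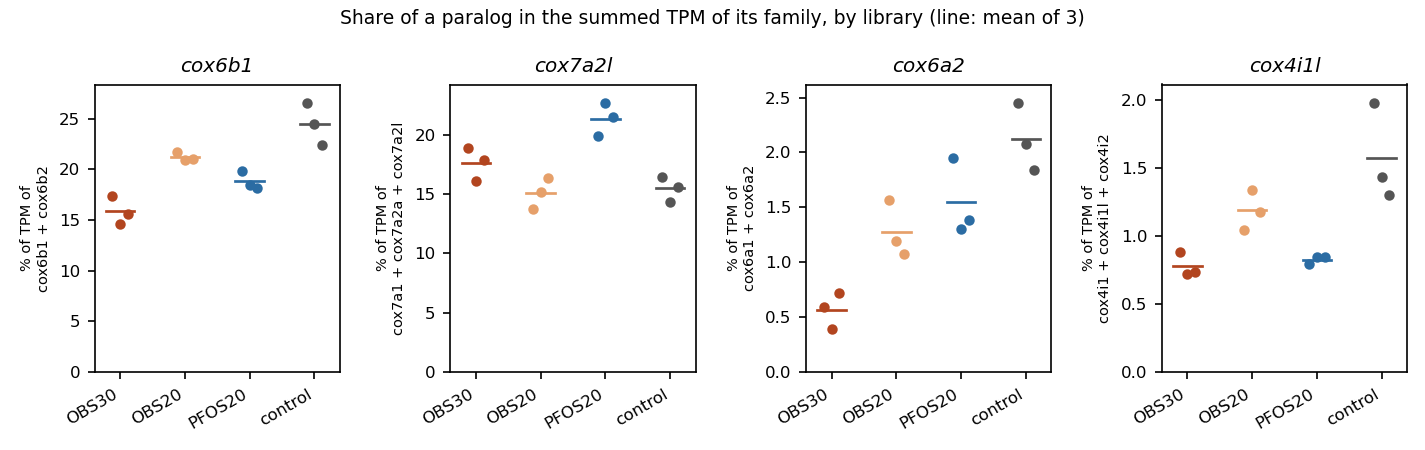
Share of 4 complex IV paralogs in the summed TPM of the genes named on each axis, in percent, for every library (points) with the mean of each group (lines), on axes that start at 0. The OBS30 libraries lie lowest for cox6b1 and cox6a2, those of OBS30 and PFOS20 lowest for cox4i1l, and the PFOS20 libraries highest for cox7a2l.

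Part of the signal of several members lay on other rows. The table pairs most rows with a KEGG orthology identifier, a label for genes of the same function, and 25 loci that were assembled from the reads and have no gene name shared an identifier with a member, over 20 identifiers. For 7 identifiers these loci held more TPM than the members. The ndufb5 row was at 6.25 ± 1.25 TPM in PFOS20 and 1.85 ± 1.83 TPM in control, beside a locus at 200.4 ± 5.25 TPM in PFOS20 and 197 ± 7.64 TPM in control. The sum of both was 207 ± 4.43 TPM in PFOS20 and 198 ± 9.45 TPM in control, a change of 0.06 ± 0.10 that was not called (adjusted p = 0.73), so the call of the named row concerns a minor part of this signal. The ndufa8 row, which varied from 0 to 14.2 TPM in control, lay beside a locus at 176 ± 7.16 TPM, and the sum was 224 ± 6.37 TPM in PFOS20 and 184 ± 0.334 TPM in control, a rise of 0.28 ± 0.07 (adjusted p = 0.020). The ndufa4 row that fell in PFOS20 shares its identifier with ndufa4l, ndufa4l2a, ndufa4l2b and a locus at 262 ± 16.7 TPM in PFOS20 and 204 ± 7.27 TPM in control, and the sum rose by 0.31 ± 0.08 (adjusted p = 0.026). For cox5b2 the sum with COX5B, the abundant copy that the rule leaves out, and 1 further row was 1093 ± 42.1 TPM in PFOS20 and 1051 ± 60.1 TPM in control, and was not called (0.06 ± 0.09, adjusted p = 0.69). For atp5mea the sum with atp5meb and 2 loci was 658 ± 16.8 TPM in OBS30 and 621 ± 5.96 TPM in control, and was not called (0.08 ± 0.07, adjusted p = 0.58).

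Every identifier was then summed, and the 4 members without an identifier kept their own row. Of these sums and rows 83 were tested. In PFOS20 19 rose, beside 6.31% of all rows in that fit, while none fell, beside 11.9%. Among the 19 were the identifiers of uqcrc2a with uqcrc2b, uqcrh, cyc1, uqcrb and the 3 c-ring genes. In OBS30, 2 sums rose, those of uqcrc2a with uqcrc2b and of ndufaf7, beside 4.71% of all rows, and none fell, beside 3.67%. In OBS20 none was called against control, beside 0.682% of all rows called higher, and 3 were lower than in PFOS20, those of uqcrh, ndufaf1 and ndufaf7, beside 3.92% of all rows, and none was higher, beside 5.86%. The sums that hold cox6a2, cox6b1 and cox4i1l were not called in OBS30, with changes of 0.07 ± 0.06, -0.10 ± 0.08 and -0.06 ± 0.09. This summing was chosen after the values were seen, and how reads were divided between a named row and a locus is not given in the sources used here.

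**Figure D5:**
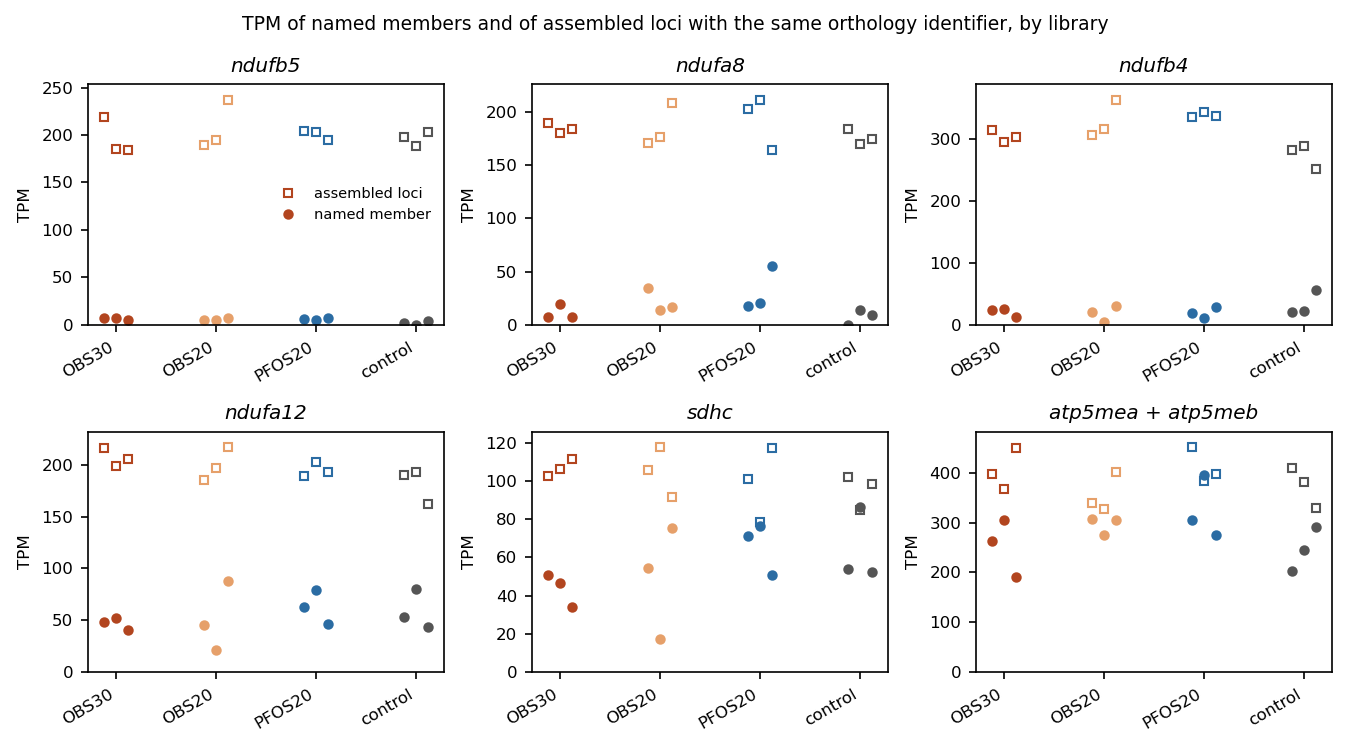
TPM of named members (filled circles) and of the assembled loci with the same orthology identifier (open squares) in every library, for 6 identifiers, on axes that start at 0. For ndufb5, ndufa8, ndufb4 and ndufa12 the loci lie above the named rows in all 12 libraries.

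Partners of the members were taken from gene lists. Of the 13 subunits encoded by mitochondrial DNA 7 rose and none fell in PFOS20, beside 6.35% of all rows higher, 2 rose in OBS30, beside 4.73%, and none was called in OBS20. The complex III subunit transcript mt-cyb was at 6587 ± 390.4 TPM in PFOS20 and 4183 ± 215 TPM in control, a rise of 0.65 ± 0.06 (adjusted p = 8.8e-05), and the ATP synthase transcript mt-atp6 rose by 0.58 ± 0.06 and the complex IV transcript mt-co2 by 0.49 ± 0.07. In OBS30 mt-cyb rose by 0.46 ± 0.06 and mt-co1 by 0.42 ± 0.05. The 13 mitochondrial transcripts together made up 8.62% ± 0.242 of TPM in OBS30, 7.94% ± 0.495 in OBS20, 10.2% ± 0.324 in PFOS20 and 7.78% ± 0.474 in control. In poly(A)-selected RNA the level of these transcripts can also depend on their tails, which was not tested.

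Of 18 tested genes of electron carriers and mitochondrial exchange 9 rose and 3 fell in PFOS20, beside the 6.35% and 11.9% of all rows. The cytochrome c gene cycsb, whose product carries electrons from complex III to complex IV, was at 1246 ± 89.5 TPM in PFOS20 and 639 ± 35.2 TPM in control, a rise of 0.96 ± 0.07 (adjusted p = 4.0e-05). The uncoupling protein gene ucp3, whose product is a mitochondrial inner membrane carrier, rose by 1.23 ± 0.15, and ckmt1, a mitochondrial creatine kinase, fell by 1.29 ± 0.13. In OBS30 5 of the 18 rose and 4 fell, beside 4.73% and 3.7% of all rows. The ucp3 gene was at 197 ± 36.1 TPM in OBS30 and 66.1 ± 5.18 TPM in control (1.55 ± 0.15). In OBS30 ucp2 changed by 1.06 ± 0.10 and slc25a3a, a phosphate carrier, by -0.76 ± 0.12. In OBS20 1 of the 18 was called, beside 0.681% of all rows called higher and 0.805% lower. It was ucp1, which fell to 55.8 ± 5.71 TPM, against 125 ± 24.7 TPM in control (-1.14 ± 0.15, adjusted p = 0.0033). Of 11 genes of ubiquinone synthesis 4 rose and none fell in PFOS20, with pdss2, a subunit of the enzyme that makes the ubiquinone tail, at 0.81 ± 0.14, coq10b, a ubiquinone-binding protein gene, at 0.61 ± 0.10 and pdss1 at 0.42 ± 0.10, and none was called in OBS20 or OBS30. Of 34 further assembly factors 2 rose in PFOS20, a share near the 6.35% of all rows. They were lyrm7, whose product handles the Rieske protein of complex III in human cells, by 1.16 ± 0.23, and uqcc2, a complex III factor, by 0.41 ± 0.11. In OBS30 1 of the 34 fell, near the 3.7% of all rows. That was sco2, a copper chaperone of complex IV, by 0.58 ± 0.13. Of 23 regulators of mitochondrial biogenesis none rose and 4 fell in PFOS20, beside 6.35% of all rows called higher and 11.9% lower. The median change of the 23 was -0.21, beside -0.13 for all rows. Of the 4 that fell, esrrga, an estrogen-related receptor, changed by -1.24 ± 0.24. The changes were -0.70 ± 0.12 for yy1a and -0.65 ± 0.14 for gabpb1, both transcription factor genes. The fourth was twnk, the mitochondrial DNA helicase. No regulator was called in OBS20 or OBS30 against control. In OBS20 against PFOS20, where 3.92% of all rows were called lower and 5.85% higher, the genes lower and higher were 7 and 0 of the 13 mitochondrially encoded subunits, 8 and 2 of the 18 carriers, 2 and 0 of the 11 ubiquinone genes, 3 and 0 of the 34 assembly factors and 0 and 2 of the 23 regulators.

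Some markers of cell types moved with the exposures beside the members. Of all tested rows 11.9% were called lower and 6.35% higher in PFOS20. The share called lower was 3.7% in OBS30 and 0.805% in OBS20. In PFOS20, 11 of 12 neuron markers fell and none rose, and their sum was 672 to 968 TPM, against 1607 to 1665 TPM in control. Of 6 keratinocyte markers 5 fell, with a sum of 3386 to 4179.6 TPM in PFOS20 and 6683 to 7022 TPM in control, and of 6 red cell markers 5 fell. Of 9 liver markers 3 fell, with a sum of 3829 to 3893 TPM in PFOS20, and of 8 intestine markers 2 fell, with a sum of 1143 to 1327 TPM. The skeletal muscle markers were at 76908 to 88953 TPM in PFOS20, with 2 of 15 called higher and 1 lower, and PFOS20 replicates 3 and 4 lay below every control library. Of 8 tested heart markers 2 rose and none fell in PFOS20. In OBS30, 7 of 9 liver markers and 6 of 8 intestine markers fell. The liver sum was 2649 to 3261 TPM in OBS30, against 5107 to 6160.1 TPM in control, and the intestine sum was 887 to 965 TPM in OBS30, against 1734 to 2214 TPM in control. Of 6 keratinocyte markers 4 fell in OBS30, with a sum of 3918 to 4593 TPM, and of 12 neuron markers 2 fell, with a sum of 1245 to 1408 TPM. In OBS20, 6 of 9 liver and 3 of 8 intestine markers fell, and of 6 photoreceptor markers 6 fell in PFOS20, 5 in OBS30 and none in OBS20. No marker in these lists was at 0 in all libraries. The part of these shifts in the values of the members was not tested.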

How the data were processed

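RNA of whole larvae was sequenced after poly(A) selection with the TruSeq kit, per the labels' protocols. The authors deposited 1 table of TPM values with 12 library columns, and the submitters' processing notes name HISAT2, StringTie, RSEM and GRCz11 without versions or roles. The authors' mean columns were not used. The table holds 12147 loci assembled from the reads beside 32520 Ensembl rows, so part of a gene's signal can lie on an unnamed locus. Read depth is unknown, so no counting interval is given. Groups and replicate numbers come from the sample titles.

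TPM values were tested as log2(TPM + 1) with limma 3.58.1 (R 4.3.3, trended variance), 1 mean per group over all 12 libraries, on rows with at least 1 TPM in at least 3 libraries. Each of the 5 comparisons was adjusted by Benjamini-Hochberg over the 30674 rows. The procedure was also run on simulated data in which rows varied independently. These held no shift of a whole library like that of OBS20 replicate 3, so they cannot show how such a shift acts on the calls. A fold change on this scale understates that of low rows. Values named are a panel of 24 members in the table, up to 2 called members per direction, comparison and complex with at least 5 TPM in the higher group, the highest and lowest member of each complex, and then the other called members because they passed the test. Of the panel, 1 member is not reported here. The members and lists were chosen with earlier results of these data known, and marker and partner lists serve as description. Alternatives were a pseudocount of 0.1, no filter or a floor of 5 TPM on the mean, median-of-ratios scaling or quantile normalisation, rescaling without mitochondrial transcripts, a replicate block, a fit of the 6 libraries compared, leaving out each library and, chosen after seeing the data, sums over orthology identifiers. A planned search of promoters for motifs was not run, since no promoter sequence was used here.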

Additional observations from a re-analysis of the deposited data

How the results depend on the processing

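No member called in any of the 5 comparisons changed sign under the alternatives, and of 9975 refitted values 366 changed sign while uncalled. Against the 23 members that rose and 3 that fell in PFOS20, median-of-ratios scaling gave 13 higher, beside 3590 of 30674 rows. Removal of mitochondrial transcripts gave 35 higher, beside 2125 of 31138 rows. A pseudocount of 0.1 and a mean of at least 5 TPM each gave 1 lower, beside 3625 of 30674 and 2686 of 14503 rows. Sums over orthology identifiers gave 0 lower, beside 3654 of 30628 rows. Leaving out 1 library gave 10 to 37 higher and 2 to 4 lower. The 10 stood beside 1366 rows called higher and the 37 beside 2829. For OBS20 against control, where none was called, 1 was higher without a filter, beside 183 of 44667 rows. Leaving out 1 library gave 0 to 0. For OBS30 against control, 3 members were higher and 6 lower. The higher count was 5 without a filter and in the fit of 6 libraries, beside 1357 of 44667 and 2008 of 30674 rows. It was 6 with quantile normalisation and 1 with median-of-ratios scaling, beside 1988 and 1686 of 30674 rows. Without 1 library it was 0 to 10, and the 10 stood beside 2338 rows. The lower count was 0 for sums over identifiers, beside 1124 of 30628 rows, and 4 to 8 without 1 library. The 4 stood beside 616 and 660 rows called lower and the 8 beside 1627. For OBS20 against PFOS20, 0 members were higher and 5 lower. Quantile normalisation gave 1 higher and 8 lower, beside 2833 and 2218 of 30674 rows. Median-of-ratios scaling gave 3 lower, beside 2173 rows, and sums over identifiers 3, beside 1200 of 30628. The fit of 6 libraries gave 0 lower, beside 350 rows. Leaving out 1 library gave 0 to 1 higher and 3 to 20 lower, and the 20 stood beside 1384 rows. For OBS30 against OBS20, 1 member was lower. Quantile normalisation gave 3 lower, beside 353 of 30674 rows, and a mean of at least 5 TPM 2, beside 179 of 14503. No filter, median-of-ratios scaling, the fit of 6 libraries and sums over identifiers gave 0, beside 123, 147, 19 and 142 rows. Without 1 library the count was 0 to 1. The cause of these shifts was not tested.

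With the replicate block the counts were 16 higher and 2 lower in PFOS20, beside 1295 and 2339 of 30674 rows. They were 0 higher and 3 lower in OBS30, beside 660 and 490 rows. For OBS20 against PFOS20 3 were lower, beside 584 rows. For OBS30 against OBS20 the count was 0, beside 108 rows called higher and 25 lower. Same-numbered libraries of different groups correlated at -0.115 to 0.101 in their deviations over 13 pairs. Differently numbered ones correlated at -0.19 to 0.25 over 41 pairs. The labels do not say what the numbers mark. These values cannot decide whether the numbers pair the libraries, since each deviation is taken from a mean of 3 libraries. Depth is unknown, so its limit on rows of few TPM could not be computed.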
